A study of Mus musculus with 10 samples.

Results

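The 8 genes described here encode the complex that writes N6-methyladenosine (m6A) on RNA: Mettl3, Mettl14, Wtap, Virma (listed under its older name 1110037F02Rik), Zc3h13, Cbll1, Rbm15 and Rbm15b. They were chosen by name, as known subunits, and not by any measured value, although earlier results of these data were already known. All 8 were found among the 30419 genes of the tables, where they held 84 of 228402 exons and 736 of 1510223 windows, a window being a short stretch of an exon.

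The series measured m6A in mouse embryonic stem cells of the J-1 line, grown without feeder cells. Fragmented total RNA was immunoprecipitated with an anti-m6A antibody (IP) and sequenced beside the RNA that went into the precipitation (input). There were 2 pairs labelled mettl3 KO, 2 pairs labelled mettl3 WT, and 1 first pair of J-1 cells with no genotype label, 10 libraries in all. The growth protocol, shared by every library, also describes differentiation without LIF, and no label says that a library came from differentiated cells. The labels state neither which part of Mettl3 was altered, nor whether the KO is 1 clone, nor whether replicates were separate cultures, so that p-values below measure the spread between these libraries only.

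As background, Mettl3 carries the methyltransferase activity and binds S-adenosylmethionine, while Mettl14 pairs with it and helps to hold the RNA. Wtap anchors this pair in nuclear speckles. Virma, Zc3h13 and Cbll1 (Hakai) join Wtap as scaffold subunits, and Rbm15 and Rbm15b are RNA-binding adaptors that bring the complex to its targets. The mark is typically densest in long internal exons and around stop codons, and in embryonic stem cells it sits on many transcripts of the pluripotency network.

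Coverage is given on the authors' scale, as the mean per window, which makes levels of genes of different length comparable. The smallest step between values put the depth of the KO inputs at 0.516 and 0.284 of the first input, and that of the WT inputs at 0.438 and 0.457. Relative to the unlabelled IP, depth was 0.0644 and 0.0606 in the KO IPs and 0.159 and 0.0712 in the WT IPs, and 74.3% and 67.6% of windows were empty in the KO IPs against 50.5% and 65.4% in the WT IPs. Both KO IPs were thus shallower than both WT IPs, but WT replicate 2 lay close to them and only WT replicate 1 stood apart. The part of depth in the IP results was not tested. The lowest coverage of any of the 8 embryonic stem cell markers in any input was 13.5, 7 of 8 fibroblast markers were under 1 in each input, and 6 of 6 extraembryonic endoderm markers were under 1 in the KO and WT inputs. The neural list summed to 24.0 and 24.5 in the KO inputs and 21.6 and 22.3 in the WT inputs, with 4 of its 6 genes under 1 in each of these libraries. Of that list Nes rose in KO by log2 1.13 (limma adjusted p = 5.22e-05) and Sox1 fell by log2 -0.55 (adjusted p = 0.0034), and of the stem cell list 1 gene rose and 2 fell, Klf4 by log2 -0.54 (adjusted p = 0.000968). The part of these marker differences in the results below was not tested.

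The targeted gene was still transcribed in the libraries labelled KO. Input coverage of Mettl3 was 3.14 and 3.38 in the KO inputs, 4.79 and 4.67 in the WT inputs and 12.9 in the first. Both KO values lay below both WT values. Mettl3 averaged 3.26 ± 0.164 in KO and 4.73 ± 0.0841 in WT (SD, n = 2 each), a fall of log2 -0.43 (SE 0.072, limma adjusted p = 0.00259). Both genotypes were far below the unlabelled first input, which had no replicate. Total coverage of that input was also larger, at 1.41e+07 against 1.01e+07 to 1.04e+07 in the KO and WT inputs. Levels here and below were not rescaled for this.

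The only other writer gene past the test was Zc3h13, a zinc finger protein that links Wtap to the adaptors. Its input coverage was 4.97 and 4.17 in the KO inputs, 6.50 and 5.81 in the WT inputs and 11.1 in the unlabelled one. It fell by log2 -0.36 (SE 0.088, limma adjusted p = 0.0152), again with no overlap between the genotypes. Without KO replicate 2 its change was log2 -0.26 (limma adjusted p = 0.0567) and without WT replicate 1 it was log2 -0.29 (adjusted p = 0.0806), so that the call rested on those libraries. Thus 2 of the 8 writer genes passed, both lower in KO, where 26.6% of the 11211 genes tested passed and 13.6% passed as lower in KO. At an unadjusted p under 0.05 there were 3 writer genes, the third being Wtap, against 39.4% of all genes.

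The other 6 writer genes did not pass the test, and their estimated differences were small. Wtap had 19.9 and 18.9 in the KO inputs, 17.0 and 18.0 in the WT inputs and only 7.80 in the first input. Its difference was log2 0.15 (limma adjusted p = 0.126). In this mean coverage the KO values of Wtap both lay above the WT values, as did those of Virma, Rbm15b and Mettl14. That held in 4 of the 8 writer genes, against 31.7% of all genes tested. Both KO values lay below both WT values in 2, Mettl3 and Zc3h13, against 34% of all genes tested. By the median of its windows Wtap went the other way, with 4.09 and 4.68 in KO and 6.11 and 6.06 in WT. The medians of Virma, Rbm15b and Mettl14 overlapped between the genotypes. Virma had 6.05 and 6.33 in the KO inputs and 5.78 and 5.61 in the WT inputs (log2 0.10, adjusted p = 0.289). Rbm15b had 6.24 and 6.10 in the KO inputs and 5.52 and 5.96 in the WT inputs (log2 0.089, adjusted p = 0.373). Mettl14 had 7.85 and 8.46 in the KO inputs and 7.77 and 7.84 in the WT inputs (log2 0.056, adjusted p = 0.579). The genotypes overlapped in Cbll1, a RING finger protein, and in Rbm15. Cbll1 had 9.34 and 7.70 in the KO inputs and 7.50 and 8.34 in the WT inputs (log2 0.090, adjusted p = 0.496). Rbm15 had 8.09 and 8.34 in the KO inputs and 8.89 and 8.08 in the WT inputs, with log2 -0.041 (adjusted p = 0.706).

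**Figure D1:**
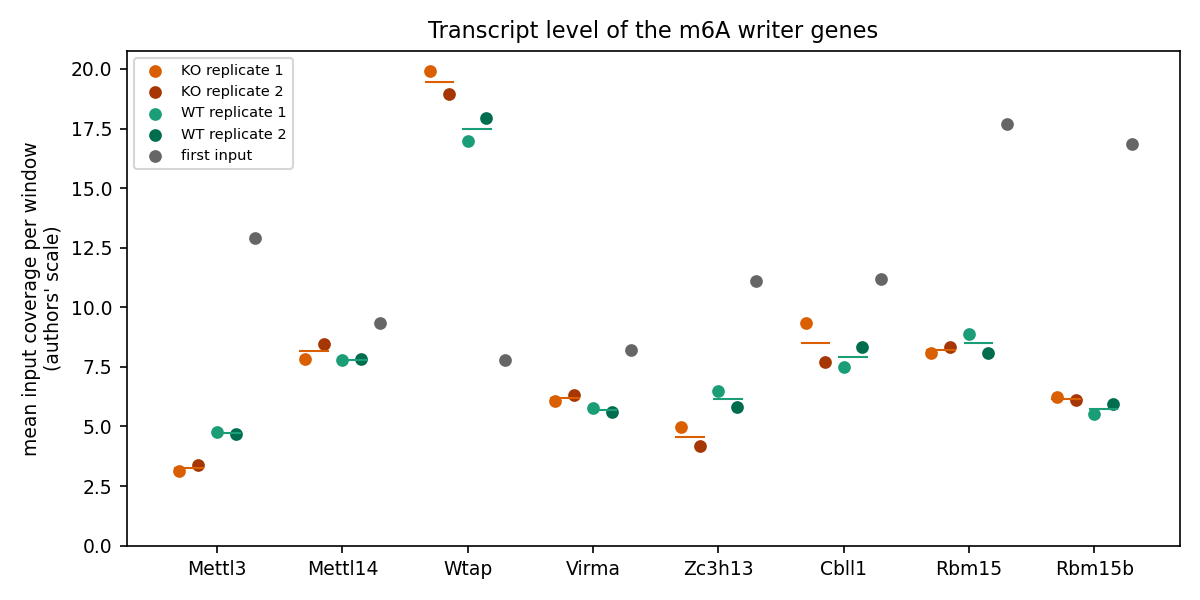
Mean input coverage per window (y axis, authors' scale) of the 8 writer genes in each input library, with KO left of WT and the first input at the right of each gene; short lines are the means of the 2 replicates. Mettl3 had 3.14 and 3.38 in KO and 4.79 and 4.67 in WT, and Wtap was the highest of the 8 in both genotypes but the lowest in the first input, at 7.80.

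Ranked by mean coverage per window, Wtap led in both genotypes and Mettl3 was the lowest of the 8. By the median of the gene's windows, Wtap lay below Rbm15, Cbll1 and Mettl14 in each KO and WT input, and Mettl3 was again the lowest. By the mean, the order in the KO inputs was Wtap, then Cbll1, Rbm15 and Mettl14, then Virma and Rbm15b, then Zc3h13, then Mettl3. Neighbours within the groups Cbll1, Rbm15 and Mettl14, and Virma and Rbm15b, overlapped. In the WT inputs the order was Wtap, then Rbm15, Cbll1 and Mettl14, then Zc3h13, Rbm15b and Virma, then Mettl3, with overlaps within those groups. Mettl3 was above 32.2% of the tested genes in KO and above 43.6% in WT, while Wtap was above 81.9% in KO and 80.1% in WT. The first input differed from this order, with Rbm15 at 17.7, Rbm15b at 16.9 and Mettl3 at 12.9 on top.

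The genes whose input pattern over the 5 libraries was most like that of Mettl3 were Atg2a, Pld3, Erf, Rnf31 and Sept1. Likeness was the Euclidean distance of mean-centred log2 levels, at 0.0653, 0.0815, 0.0830, 0.103 and 0.105, against a median of 1.05 over all genes tested. As they were picked by these same values, each was by selection, like Mettl3, lower in KO than in WT and higher in the first input. The nearest writer genes were Rbm15b and Zc3h13, both at 0.543, with 1312 and 1314 genes nearer to Mettl3, and Wtap was the farthest at 2.43.

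Among the 15 genes of a list of m6A readers and erasers, 3 rose and 1 fell in KO in the same fit, a share close to the 26.6% of all genes that passed. The reader Igf2bp2 had 16.3 and 14.0 in the KO inputs and 10.6 and 11.5 in the WT inputs (log2 0.42, limma adjusted p = 0.00503). The cytoplasmic reader Ythdf1 rose by log2 0.22 (adjusted p = 0.0264), and the demethylase Fto rose by log2 0.22 (adjusted p = 0.0446). Hnrnpc, a nuclear RNA-binding protein, fell by log2 -0.29 (adjusted p = 0.0177), with 97.5 and 106.4 in the KO inputs and 121.2 and 127.9 in the WT inputs. The median over the list was log2 0.011, against -0.0048 over all genes tested. None of 11 genes of other RNA methyltransferases and the methyl donor supply passed, against the same 26.6%, with Mettl5, an 18S rRNA methyltransferase, closest at log2 0.18 (adjusted p = 0.0661).

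Exon by exon, the lower Mettl3 coverage was spread along the gene. Exon numbers of the files run in genomic order, so that in Mettl3, a minus-strand gene of 11 exons, the highest number lies at the 5′ end. The estimate was lower in KO in 11 of 11 exons, and in 9 of them both KO values lay below both WT values. Over all exons tested, 26% had both KO inputs below both WT inputs. No exon of a writer gene passed limma's test of exon coverage, in which 0.122% of 106796 exons passed, and 9 of the 82 tested writer exons had an unadjusted p under 0.05, against 13% of all exons.

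The 2 KO libraries differed from each other in 2 exons of Mettl3. These exons were singled out by the values given next, so that the shares of exons below describe them and are no test. KO replicate 2 was also the shallowest of the KO and WT inputs, at 0.284 of the depth of the first. Exon 8, the 4th from the 5′ end, had 3.33 and 0.388 in the KO inputs, 3.34 and 4.88 in the WT inputs and 7.43 in the first input. Its 4 windows lay between 0.140 and 0.692 in KO replicate 2 and between 1.89 and 4.51 in KO replicate 1, against 1.54 to 5.76 in the WT inputs. KO replicate 2 was thus nearly empty over the whole exon, while KO replicate 1 was at the level of WT replicate 1. Against the WT mean the exon was at log2 -1.88 in KO replicate 2, a value that 0.0407% of the 68811 exons with a WT mean of at least 3 reached or went below in that library. In KO replicate 1 it was at log2 -0.24, which 27.5% of exons reached or went below. Exon 3, the 9th from the 5′ end, followed the same division.

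Exon 3 had 2.51 and 0.733 in the KO inputs, 3.91 and 2.58 in the WT inputs and 2.95 in the first input. In KO replicate 2 it was at log2 -1.29, which 0.315% of exons reached or went below, and in KO replicate 1 at log2 -0.28, with 24.0% at or below. The other 41 windows of Mettl3 averaged 3.16 and 3.80 in the KO inputs, 4.97 and 4.75 in the WT inputs and 13.9 in the first input. Averaged over these windows, KO replicate 2 therefore had the higher coverage of the 2 KO libraries, although KO replicate 1 was higher in exons 1, 2 and 4.

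Over both KO libraries exon 8 was at log2 -1.04 (limma adjusted p = 0.372). Without KO replicate 1 it was at log2 -1.86, and without KO replicate 2 at log2 -0.22. Relative to the rest of the gene, by diffSplice, exon 8 was at log2 -1.50 without KO replicate 1 and at 0.22 without KO replicate 2. With 1 KO library the spread within KO cannot be measured, so only the sizes are given. With all 4 libraries 0% of 105196 exons passed diffSplice (6.02% at an unadjusted p under 0.05) and no writer exon did. The cause of the difference between the 2 KO libraries was not tested, and the annotated Mettl3 locus overlaps that of Tox4.

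**Figure D2:**
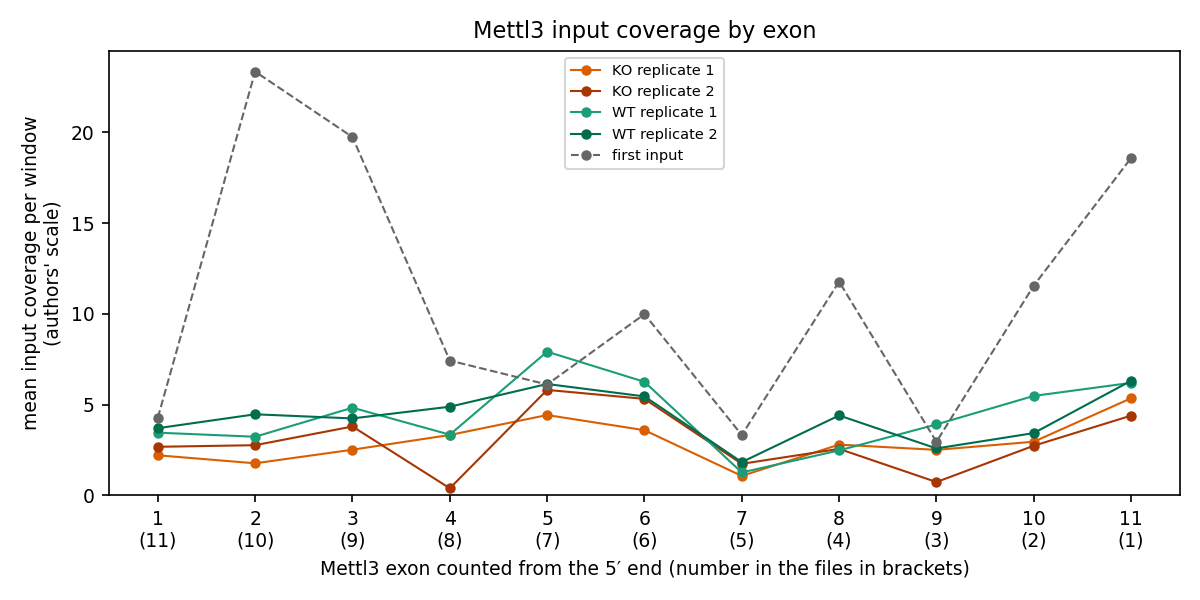
Mean input coverage per window (y axis, authors' scale) of the 11 Mettl3 exons, in order from the 5′ end with the number in the files in brackets, as one line per input library. KO replicate 2 dropped to 0.388 in exon 8 and 0.733 in exon 3, while KO replicate 1 had 3.33 and 2.51 there.

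Zc3h13 repeated the broad pattern, with both KO inputs below both WT inputs in 11 of 19 exons and both above in 1. Its exon 15 had 4.95 and 4.24 in the KO inputs and 7.22 and 7.10 in the WT inputs, and exon 12 had 2.55 and 2.52 in the KO inputs and 4.95 and 3.33 in the WT inputs. In Virma, by contrast, 9 of the 24 tested exons had both KO inputs above both WT inputs and 3 had both below. Over all exons tested, 18.5% had both KO inputs above. Mettl14 had 1 exon above and 0 below, and Rbm15, with 2 exons, had 0 in either direction.

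In Wtap, whose exons did not all differ in one direction, 6 of 9 exons had both KO inputs above both WT inputs and 1 had both below. Exon 1, the last from the 5′ end, had 69.5 and 64.4 in the KO inputs, 43.2 and 48.4 in the WT inputs and 24.7 in the first input, a difference of log2 0.54 (limma adjusted p = 0.154). Exon 3, a long exon of 90 windows, had 7.72 and 7.92 in the KO inputs and 11.05 and 11.5 in the WT inputs (log2 -0.47, adjusted p = 0.283). The replicates lay close together and the genotypes did not overlap in either exon, yet neither passed. Wtap exon 1 passed without KO replicate 2, at log2 0.59 with limma adjusted p = 0.0467, in a fit where 0.588% of all exons passed, and in none of the other 3 leave-outs, where adjusted p was between 0.0501 and 0.757.

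Within exon 3 the stretches described next were chosen after their values were seen. Windows 65 to 84 had an input coverage of 17.9 and 17.3 in KO, 28.4 and 31.6 in WT and 2.09 in the first input. As a share of exon 1 coverage this was 0.257 and 0.268 in KO, 0.658 and 0.653 in WT and 0.0844 in the first input. The adjoining windows 85 to 88, on the 5′ side, had 36.3 and 37.8 in KO and 33.2 and 33.5 in WT. On the other side, windows 1 to 64 had a low coverage, at 2.59 and 2.87 in KO and 4.32 and 3.80 in WT, again lower in both KO inputs. In the mean of each stretch, KO coverage was thus lower in windows 65 to 84 and in windows 1 to 64, and not in windows 85 to 88. Single windows departed from these means. Window 85 was lower in KO, with 21.4 and 24.7 against 27.7 and 28.4 in WT. Within windows 1 to 64 the genotypes overlapped in places, as in window 36, with 4.01 and 5.26 in KO and 3.79 and 4.51 in WT. In the first input 13 of the 20 windows from 65 to 84 were under 1, and its highest value there was 13.6, in a window of the m6A region described below.

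**Figure D3:**
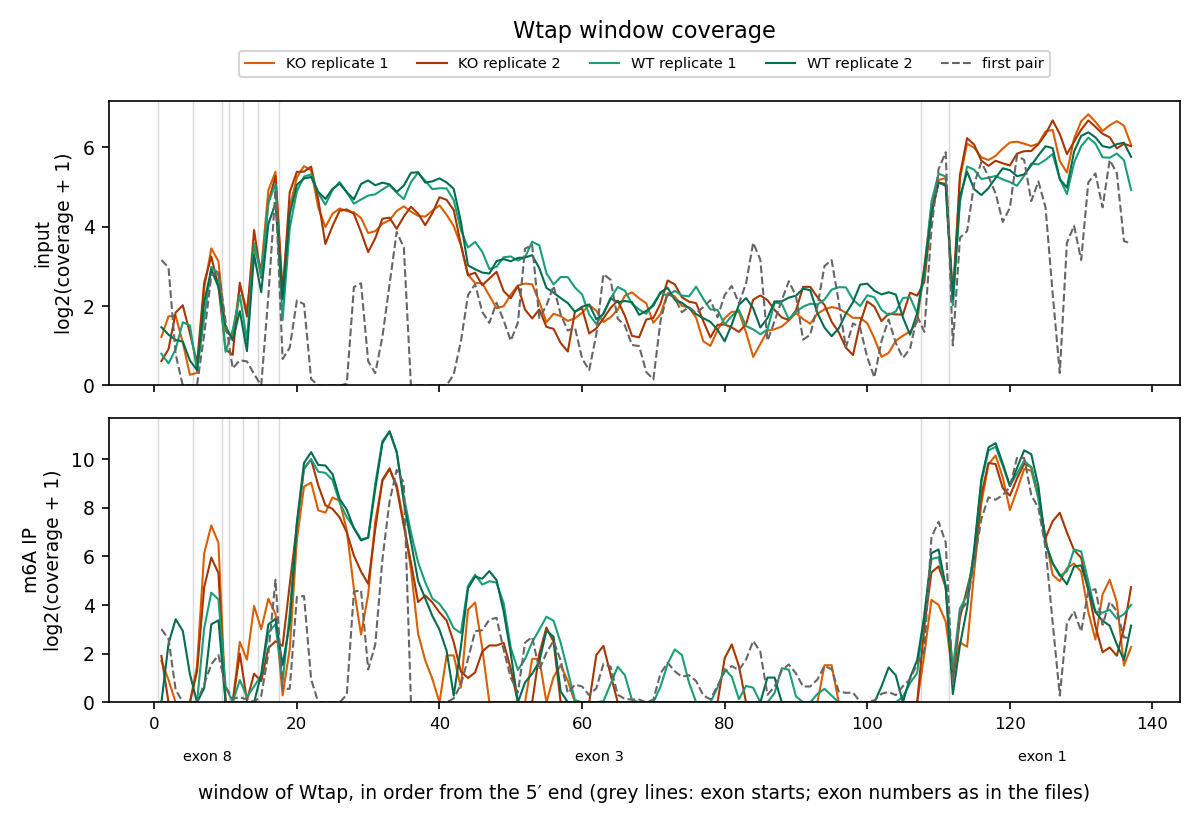
Input coverage (top) and IP coverage (bottom) along the 137 windows of Wtap in order from the 5′ end, as log2(coverage + 1), one line per library, with grey lines at exon starts. Input coverage of exon 1 was higher in both KO libraries than in both WT libraries, whereas windows 65 to 84 of exon 3 were lower in both, at 17.9 and 17.3 in KO and 28.4 and 31.6 in WT.

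The m6A signal was first placed on the writer transcripts in the first IP, which belongs to neither genotype. The authors' winscore compares a window's IP and input, each divided by the median of the gene's windows, with 1 added to every value first. It is the log2 of that IP over that input. A region was a run of at least 2 windows with a winscore of at least 2. There were 18 regions on 6 of the 8 writer genes, and 54.4% of the genes tested had one. Wtap had 5, Virma 4, Rbm15 and Rbm15b 3 each, Zc3h13 2 and Cbll1 1. The catalytic pair had none: the highest winscore in the first IP was 1.13 on Mettl3 and 1.75 on Mettl14.

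Several regions on Cbll1, Wtap, Zc3h13 and Virma are given by their winscores. Cbll1 carried its region in exon 1, its last exon from the 5′ end, at windows 46 to 56, with winscores of 5.99 and 5.67 in KO, 5.395 and 6.18 in WT and 3.52 in the first pair. The genotypes overlapped there. In Wtap exon 3, windows 73 to 77 had winscores of 5.12 and 4.88 in KO, 5.41 and 5.88 in WT and 5.26 in the first pair, with both KO values below both WT values. In Wtap exon 1, windows 13 to 22 had 3.66 and 3.69 in KO, 4.28 and 5.16 in WT and 3.99 in the first pair, and here too the KO values were the lower ones. Zc3h13 exon 10, windows 1 to 6, had 4.20 and 3.08 in KO, 3.72 and 3.96 in WT and 4.68 in the first pair, and the genotypes overlapped. Virma exon 8, windows 13 to 20, had 4.46 and 4.37 in KO, 3.88 and 4.09 in WT and 3.96 in the first pair, with both KO values above both WT values.

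Regions on the writer transcripts were present in the libraries labelled KO. A winscore of 2 or more was held in 11 and 14 of the 18 regions in the KO pairs and in 15 and 15 in the WT pairs. As shares these were 61.1% and 77.8% in KO and 83.3% in each WT pair, where all regions had 82.9% and 85.4% in KO and 90.9% and 91.9% in WT. In the 4 pairs together 11 of 18 (61.1%) held it throughout, against 71.8% of all regions. When runs were called anew in each pair, the writer genes had 33 and 27 in KO, 26 and 32 in WT and 18 in the first pair, where all genes tested had 37747 and 34040 in KO, 21185 and 30835 in WT and 10098 in the first pair. Of the windows in runs of both KO pairs, 85.3% were also in runs of both WT pairs, and of those of both WT pairs 77.0% were in runs of both KO pairs. Over all genes tested these shares were 67.6% and 70.5%.

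Neither test called a writer region. For the winscore, limma called 0% of 10098 regions (8.16% at an unadjusted p under 0.05), and of the 18 writer regions 0 had an unadjusted p under 0.05. In this measure 13 of 18 were lower in KO with a median of log2 -0.20, against 53.9% of all regions and a median of -0.069. For the log2 ratio of IP to input, centred on windows outside regions, limma called 0% of 9554 regions (16.7% at an unadjusted p under 0.05), and 2 writer regions had an unadjusted p under 0.05. In this measure 15 of 18 were lower with a median of log2 -0.54, against 77.5% of all regions and a median of -0.44. Both KO values lay below both WT values in 8 of the 18 by ratio, against 46.1% of all regions, and in 6 of 18 by winscore, against 22.2%.

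**Figure D4:**
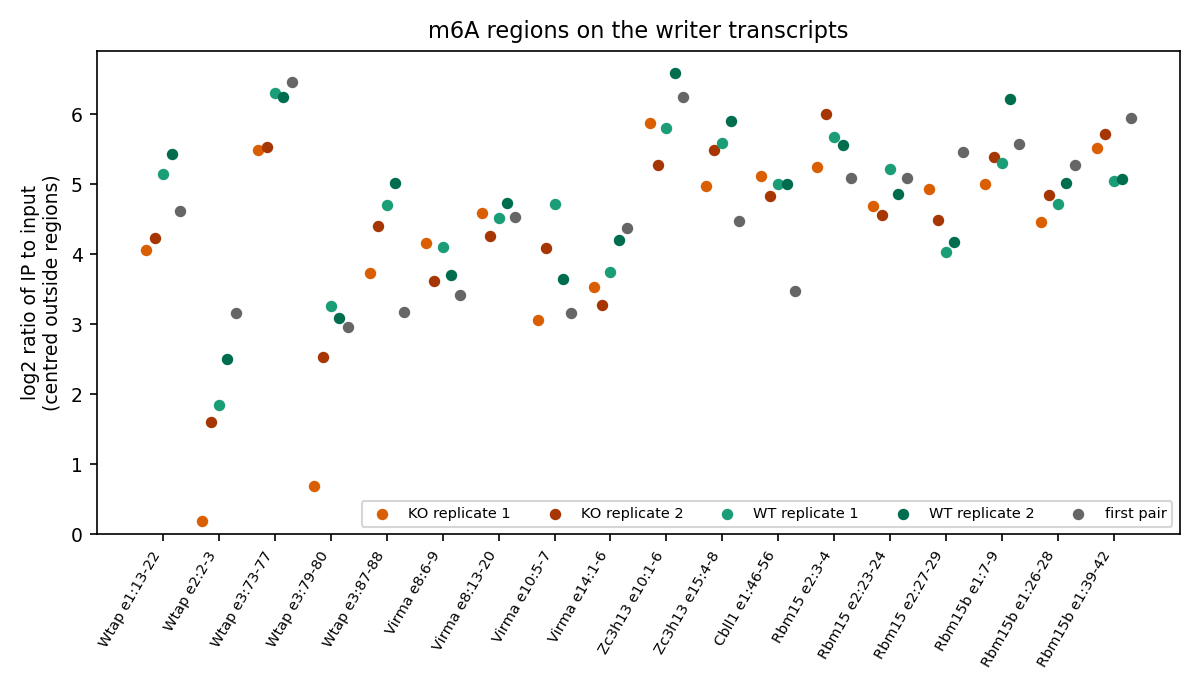
Log2 ratio of IP to input (y axis, centred on windows outside regions) of the 18 regions on writer transcripts in each pair, with KO left of WT and the first pair at the right; labels give gene, exon and windows as numbered in the files. All 5 Wtap regions had both KO values below both WT values.

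The regions of Wtap had the largest drops in ratio among the writer regions. Windows 13 to 22 of exon 1 had a log2 ratio of 4.06 and 4.24 in KO, 5.15 and 5.43 in WT and 4.61 in the first pair (log2 -1.14, limma adjusted p = 0.268). Windows 73 to 77 of exon 3 had 5.49 and 5.53 in KO, 6.30 and 6.24 in WT and 6.45 in the first pair (log2 -0.76, adjusted p = 0.270). These were the 2 writer regions with an unadjusted p under 0.05. IP coverage was lower in KO in both, but KO input was higher in the exon 1 region and lower in the other. The exon 1 region had input of 64.03 and 55.86 in KO and 39.38 and 42.04 in WT. Its IP was 553.99 and 575.58 in KO and 749.85 and 884.48 in WT. Higher KO input thus added to its drop in ratio. The exon 3 region had input of 17.71 and 15.96 in KO and 28.38 and 31.67 in WT. Its IP was 429.46 and 419.32 in KO and 1211.82 and 1179.31 in WT. In the other 3 Wtap regions the KO replicates differed more from each other, as at windows 79 and 80 of exon 3, with 0.69 and 2.53 in KO and 3.26 and 3.09 in WT (log2 -1.57, adjusted p = 0.329). Without KO replicate 2 that region and the one in exon 1 passed, at adjusted p of 0.0151 and 0.0388, when 1674 of 9554 regions did. Without KO replicate 1 the region at windows 79 and 80 was at log2 -0.65 (limma adjusted p = 0.385).

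A further stretch of Wtap was called as a run in both KO pairs and in no other pair. Exon 8, the 2nd from the 5′ end, had an IP coverage of 79.6 and 31.7 in KO, 11.7 and 4.53 in WT and 1.37 in the first IP, over an input coverage of 5.59 and 4.66 in KO, 3.85 and 3.69 in WT and 3.45 in the first input. Its windows 1 to 3 were in runs in both KO pairs. Winscores of window 1 were 4.27 and 3.38 in KO, 1.80 and 1.97 in WT and -0.44 in the first pair, so that this window lay just under the threshold of 2 in WT. Window 3 had 4.53 and 2.70 in KO, 1.70 and -0.44 in WT and -0.0026 in the first pair, and was further from the threshold in WT replicate 2. On the writer genes 8 of 736 windows, in Wtap, Virma and Zc3h13, were in runs of both KO pairs and of neither WT pair nor the first. The opposite pattern held in 9 windows, of which 3 were in Wtap exon 3 between windows 60 and 72 and the others in Virma, Cbll1 and Rbm15b. Over all genes tested, 11930 of 761431 windows had the first pattern and 4783 the opposite one. Genes with 2 or more such windows numbered 3090 for the first pattern and 1296 for the opposite one, so that the first was common outside the writer genes.

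Mettl3 itself had 1 stretch called in more than 1 pair, in exon 9, the 3rd from the 5′ end. Its window 4 had winscores of 2.60 and 1.21 in KO, 2.68 and 3.59 in WT and 0.90 in the first pair, and its window 5 had 3.71 and 2.07 in KO, 2.33 and 3.62 in WT and 1.13 in the first pair. The run was called in both WT pairs and in KO replicate 1, but not in KO replicate 2. IP coverage of window 4 was 8.31 and 4.49 in the KO IPs, 22.8 and 29.3 in the WT IPs and 35.9 in the first IP, over an input coverage of 5.01 and 8.54 in KO, 6.30 and 4.78 in WT and 35.0 in the first input. The IP values of KO thus lay below those of WT, while KO replicate 2 had the highest input of the 4 and the lowest IP. Exon 4 had a run in KO replicate 1 only, where the IP coverage of its first window was 58.1 and 0.629 in the KO IPs, 3.41 and 9.93 in the WT IPs and 10.2 in the first IP. The gene's median IP coverage was 0 in both KO IPs, which raises winscores of its covered windows there. The median was also 0 on Mettl14 in KO replicate 1, and runs on Mettl14 numbered 5 and 2 in KO against 1 and 2 in WT.

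Whole transcripts were then compared by mean IP over mean input coverage, a measure added after the data had been seen, because winscore divides by the gene's own median and so hides methylation spread over a whole transcript. The adaptors had the highest ratios of the 8 in both KO pairs and the first pair, while in both WT pairs Wtap lay between Rbm15b and Rbm15. Rbm15b had a ratio of 8.90 and 11.6 in KO, 10.2 and 10.6 in WT and 7.996 in the first pair, against a median over all genes tested of 1.07 and 1.11 in KO, 1.28 and 1.26 in WT and 0.936 in the first pair. Rbm15 had 7.58 and 7.73 in KO, 7.18 and 7.84 in WT and 7.96 in the first pair. Rbm15b was above 98.5% to 99.3% of genes and Rbm15 above 96.9% to 98.7% over the 5 pairs. Both genes overlapped between the genotypes, and the winscores of their regions were low, between 0.64 and 3.28 over the 5 pairs.

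Mettl14 and Mettl3 lay at the other end. Mettl14 had a ratio of 0.551 and 0.816 in KO, 1.13 and 0.787 in WT and 0.837 in the first pair. Mettl3 had 0.996 and 0.277 in KO, 0.712 and 0.720 in WT and 0.601 in the first pair, so that the 2 KO libraries lay on either side of WT. The catalytic pair was thus below the median of all genes in each of the 5 pairs. The Mettl3 value of KO replicate 1 rested largely on exon 4, with 3 of the gene's 47 windows. IP coverage of that exon was 31.3 in KO replicate 1, where the whole gene averaged 3.13 and the next highest exon, exon 9, had 2.94. The scaffold subunits lay between, with Zc3h13 at 4.90 and 5.77 in KO and 5.64 and 6.60 in WT, Cbll1 at 3.16 and 3.24 in KO and 3.27 and 2.81 in WT, and Virma at 2.54 and 2.74 in KO and 3.28 and 3.14 in WT.

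Wtap had the largest difference between the genotypes of the 8. Its ratio was 4.01 and 4.84 in KO, 8.41 and 8.69 in WT and 6.54 in the first pair, with IP coverage of 79.9 and 91.8 in KO and 142.7 and 156.1 in WT over inputs of 19.9 and 18.9 in KO and 17.0 and 18.0 in WT. On the centred log2 scale this was -1.01 (SE 0.18, limma adjusted p = 0.183), in a test that called 0% of 11211 genes (18.1% at an unadjusted p under 0.05). Wtap passed without KO replicate 2 (log2 -1.10, adjusted p = 0.00706) and without KO replicate 1 (log2 -0.91, adjusted p = 0.0375), when 2075 and 678 genes did, but not without either WT library (adjusted p = 0.583 and 0.938). Of the 8 writer genes 7 were lower in KO with a median of log2 -0.29, against 70.8% of all genes and a median of -0.21. On this centred log2 scale both KO values lay below both WT values in 4 of 8, against 41.7% of all genes. The 4 were Wtap, Virma, Zc3h13 and Mettl14. In the uncentred ratios given above, Zc3h13 and Mettl14 overlapped between the genotypes.

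**Figure D5:**
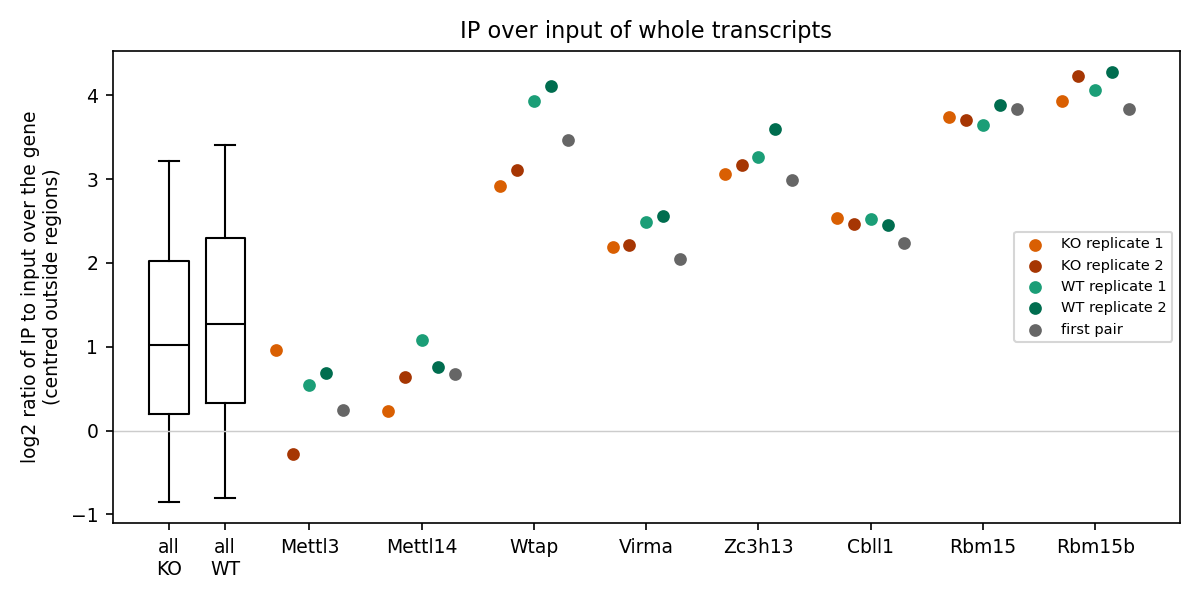
Log2 ratio of IP to input over the whole gene (y axis, centred on windows outside regions) for the 8 writer genes in each pair, with KO left of WT and the first pair at the right; boxes show the quartiles and whiskers the 5th and 95th percentiles of all 11211 genes tested, for the mean of the 2 KO and of the 2 WT pairs. Rbm15 and Rbm15b lay above the whiskers in each pair, Mettl3 and Mettl14 near or below the medians, and Wtap had both KO values below both WT values.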

How the data were processed

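The authors deposited, per the file headers, a table of windows for each pair with input and IP coverage, the gene's median of each, and winscore, a log2 score; the formula of winscore held in all 1510223 windows of all 5 pairs. Reads were aligned with TopHat 1.1.3 to mm9, per the submitters' processing notes; the scaling of coverage and the use of strand in counting were not given in the sources used here. An RPKM table deposited by the authors served as an alternative only, because its KO input columns followed the KO IP coverage. With pseudocount 1, log2 coverage was tested with limma 3.58.1 (R 4.3.3; lmFit, eBayes with trend, diffSplice; two-sided, Benjamini-Hochberg, threshold 0.05), KO against WT, 2 libraries each, over all genes or exons with at least 1 in at least 2 of 4 inputs. Region ratios were centred on the median outside regions (winscore under 1, 6460 genes with a mean input of at least 5), and regions needed a mean input of at least 1. Scripts were tested on simulated data.

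The members, lists and tests were chosen with earlier results of these data known; each member, exon and region may be named, and from each list up to 5 genes with the smallest p. Strand came from RefSeq tables of a later build, which do not list Mettl14 and Virma here, so no coordinates are given and the exons of these 2 genes keep the files' numbers only. In minus-strand genes with 3 or more exons, exon 1 was longer than the last in 90.4% of 6821, and in plus-strand genes the last was longer in 90.0% of 6842. The tables place Tox4, Slc16a4, Dcaf1, Gm46470 and Gm40362 over parts of Mettl3, Rbm15, Rbm15b, Zc3h13 and Cbll1, so their shared ends are uncertain. Same-numbered KO and WT libraries did not deviate together (r of -0.027 over genes and 0.012 over region ratios). Alternatives were other pseudocounts, filters, scalings, region thresholds, a replicate block and leaving out each library. Mature RNA sequence under the regions was not analysed here.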

Additional observations from a re-analysis of the deposited data

Results flagged for a closer look

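The deposited RPKM table, which none of the comparisons above uses, gave 6 writer genes as higher in its columns labelled KO input than in those labelled WT input. On the log2(RPKM + 1) scale the differences were 2.28 for Wtap, 1.36 for Virma, 1.91 for Zc3h13, 1.79 for Cbll1, 2.77 for Rbm15 and 3.46 for Rbm15b, each past limma's test. That test called 7965 of 12245 genes, 5011 of them as higher in the KO columns, so passing it was common outside the writer genes. For Rbm15b the RPKM values were 69.7 and 80.8 in KO and 5.68 and 6.14 in WT, while its input coverage was 6.24 and 6.10 in KO and 5.52 and 5.96 in WT, and its IP coverage 55.5 and 70.6 in KO and 56.3 and 63.4 in WT. Across 11211 genes, which are not independent replicates, the KO columns correlated with the KO IP coverage at r of 0.958 and 0.973 and with the KO input coverage at 0.689 and 0.704. The WT columns correlated with the WT IP coverage at 0.682 and 0.633 and with the WT input coverage at 0.992 in both replicates. The columns labelled KO input in the RPKM table thus lay closer to the IP coverage of the same replicates.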

How the results depend on the processing

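With 2 libraries per genotype, and shallow IPs in KO and in WT replicate 2, 1 library can decide a call. At the transcript level 2 writer genes passed; 0 did with no filter (15 of 30419 genes passed), 1 with a minimum of 5 (Mettl3 was then not tested), 7 in the RPKM table, and 1 to 2 when 1 library was left out (Mettl3 passed each time). The RPKM table reversed Mettl14 (-0.11), Rbm15 (2.77) and Zc3h13 (1.91). Leaving out 1 library also changed which writer exons, regions and whole-transcript ratios passed, as it changed the calls over all features. The replicate block left the count of writer genes at 2 and those of exons and regions at 0; over all features it moved calls to 470 exons and 63 winscore regions. Reversed by other settings were the Zc3h13 exon 15 region (0.22 by its highest window) and, with the authors' scaling alone, the ratios of Virma exon 8 windows 6 to 9 (0.059), the Cbll1 region (0.037) and whole Rbm15 (0.025). Differences whose sign changed when 1 library was left out ranged as follows. Transcript levels ranged -0.035 to 0.21 for Cbll1 and -0.10 to 0.022 for Rbm15. Mettl3 relative to the gene ranged -0.86 to 0.18 in exon 3 and -1.50 to 0.22 in exon 8. Winscores ranged -0.52 to 0.44 in Rbm15 windows 3 to 4, -0.86 to 0.48 in Virma exon 10, -0.41 to 0.031 in Virma exon 14, -0.35 to 0.44 in Cbll1, -0.75 to 0.36 in Zc3h13 exon 10 and -0.12 to 0.10 in exon 15. Ratios ranged -0.37 to 0.39 in Rbm15 windows 3 to 4, -0.28 to 0.27 in Virma exon 8 and -0.17 to 0.11 in Cbll1. Whole-transcript ratios ranged -0.90 to 0.35 for Mettl3, -0.019 to 0.049 for Cbll1, -0.16 to 0.081 for Rbm15 and -0.24 to 0.058 for Rbm15b.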
